A study of Mus musculus with 8 samples.

Results

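IL-6 family signalling through STAT3 and its SOCS inhibitors was examined as 8 genes in mouse skin, chosen by name for the roles they have in this pathway, at a time when earlier results of these data were known. These were the ligands Il6 and Lif, the receptor chains Il6ra and Il6st, the transcription factor Stat3 and the inhibitors Socs3, Socs1 and Cish. All 8 were found among 22740 listed genes and all 8 were among the 15163 genes that passed the filter on low counts. The study gave mice butyrate, a short-chain fatty acid, in their drinking water and exposed their back skin to house dust mite extract (HDM), which brings on skin inflammation resembling atopic dermatitis. One RNA sequencing library was made from the skin of each of 8 mice, 2 in each of 4 groups. All were BALB/c females on a low-fibre diet. Baseline CTL mice (replicates 1 and 2) received water alone and no HDM, and baseline butyrate mice (replicates 1 and 3) received 400 mM sodium butyrate and no HDM. Lesional CTL mice (replicates 4 and 5) and lesional butyrate mice (replicates 3 and 4) received 15 µg of HDM in each of 4 exposures over 2 weeks, without butyrate or with it from 2 weeks before the first exposure. The labels give an age of 6 to 8 weeks.

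Most IL-6 family cytokines act through receptor complexes that share the chain gp130, encoded by Il6st. IL-6 first binds its own receptor chain, encoded by Il6ra, whereas LIF binds a LIF receptor chain, and gp130 then lets JAK kinases phosphorylate STAT3, which enters the nucleus and switches on genes. SOCS3, which STAT3 itself induces, binds gp130 and JAKs and ends the signal, SOCS1 acts mainly on interferon receptors and JAKs, and CISH is induced by STAT5. In skin, keratinocytes, fibroblasts and immune cells make these cytokines during wounding and inflammation.

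Sequence before or around a RefSeq transcription start is shown for 3 genes, to set a cytokine gene beside 2 inhibitor genes. Of these inhibitor genes Socs3 stood apart in lesional CTL skin and Cish did not. All 8 genes had an entry in the RefSeq promoter table (GRCm38.p6). The STAT palindrome TTCNNNGAA, which reads the same on both strands, was found by its letters in the windows of Socs3 and Cish, and in 8.30% of 32851 windows of the same length (250 bases before to 50 after a start). A match to the NF-kB consensus on either strand was found for Il6 and Lif, and in 8.46% of all windows. Matches are in capitals in the lines that follow. The Il6 stretch, 250 bases up to the start at chr5:30012864-30013113 on the plus strand, holds an NF-kB match that begins at position -44 from the start. The Socs3 stretch, chr11:117969466-117969565 on the minus strand, holds a STAT match that begins at position -154. The Cish stretch, chr9:107296655-107296684 on the plus strand, spans the start and holds 2 STAT matches at positions 1 and 12. A match describes letters in a window and was not tested as a binding site. Positions count from the RefSeq start. The GENCODE intervals of Socs3 (chr11:117966079-117970047, minus strand) and Cish (chr9:107296026-107302784, plus strand) begin upstream of that start. The Socs3 and Cish stretches therefore lie inside the genes as GENCODE draws them.
Il6: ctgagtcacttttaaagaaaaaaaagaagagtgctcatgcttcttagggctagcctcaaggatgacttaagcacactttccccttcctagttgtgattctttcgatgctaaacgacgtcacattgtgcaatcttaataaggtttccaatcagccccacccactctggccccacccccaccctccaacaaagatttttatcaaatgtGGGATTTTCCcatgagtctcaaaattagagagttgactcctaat
Socs3: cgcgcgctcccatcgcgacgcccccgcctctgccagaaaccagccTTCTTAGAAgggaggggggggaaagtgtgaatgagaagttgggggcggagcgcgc
Cish: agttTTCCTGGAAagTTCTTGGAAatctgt

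Library totals lay between 18004136 and 21085544 counts, and levels are given as CPM, which are counts scaled to the size of the library, with edgeR's TMM factors. On this scale 3 counts, used as a floor, were 0.138 to 0.169 CPM. One library stood apart. In baseline butyrate replicate 3 the markers of growing hair follicles (6 of 7 found) summed to 16530 CPM against 6.20 to 14.2 CPM in the other 7 libraries, and keratinocyte markers summed to 8635 CPM against 13649 to 20948 CPM. Gene levels in it differed by more than 2-fold from those of the other baseline butyrate mouse in 27.1% of 14317 genes, whereas the pairs of the other groups did so in 1.76% to 4.95%. Because all 4 groups share 1 estimate of the spread, results are also given without that mouse. The first number of a library's label differs between baseline and lesional mice, so HDM exposure and the set of mice cannot be told apart. The skin was whole tissue, so that fewer cells of a type and less RNA per cell cannot be told apart. In what follows a gene is called changed at an FDR (Benjamini-Hochberg over all tested genes, edgeR's quasi-likelihood test) below 0.1 with a fold-change above 2.

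In CTL mice the ligands and Socs1 rose in skin exposed to HDM, while the receptor chains, Stat3, Socs3 and Cish did not pass the test. In lesional CTL against baseline CTL skin, Il6, Lif and Socs1 were called higher, 3 of 8 against 2.37% of all tested genes called higher. Both lesional CTL libraries lay above both baseline CTL libraries for 6 of the 8, against 36.7% of all genes, which leaves Il6ra and Cish. For Il6ra both lesional CTL libraries lay below both baseline CTL libraries, 1 of 8 against 38.5% of all genes, and for Cish the groups overlapped. With butyrate, Il6, Lif, Stat3, Socs3 and Socs1 were lower in both lesional libraries than in both lesional CTL libraries, 5 of 8 against 22.5% of all genes. These differences did not pass the correction over all genes in the fit of all 8 mice.

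Il6 encodes the founding cytokine of the family (ENSMUSG00000025746, chr5:30013114-30019981 on the plus strand). It was at 0.667 and 0.222 CPM in baseline CTL, 0.620 and 0.187 CPM in baseline butyrate, 11.3 and 16.1 CPM in lesional CTL and 2.62 and 1.91 CPM in lesional butyrate skin. The groups with and without HDM did not overlap, and within lesional skin the CTL and butyrate mice did not overlap either. The baseline values rested on 12, 4, 11 and 4 counts, and for 4 counts the exact Poisson 95% interval, which covers counting error only, ran from 1.09 to 10.2 counts. In lesional skin the counts were 211 and 349 for CTL and 55 and 41 for butyrate. Il6 rose 30.4-fold in lesional CTL over baseline CTL skin (log2 fold-change 4.93 ± 0.67, SE, n = 2 mice per group, edgeR FDR = 0.0372). The size of this rise moved with the baseline CTL mouse left out, and the log2 fold-change was 5.91 without replicate 1 and 4.35 without replicate 2 of that group, with an edgeR FDR of 0.337 and 0.301. In butyrate-treated mice the same comparison gave a log2 fold-change of 2.5 ± 0.65 and an edgeR FDR of 0.247, which did not pass. Lesional butyrate lay 6.03-fold below lesional CTL skin (log2 fold-change -2.59 ± 0.57, edgeR unadjusted p = 0.00335, FDR = 0.737).

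Lif encodes leukaemia inhibitory factor, which shares gp130 with IL-6 (ENSMUSG00000034394, chr11:4257557-4272514 on the plus strand). It was at 2.33 and 3.33 CPM in baseline CTL, 2.14 and 2.57 CPM in baseline butyrate, 11.2 and 7.61 CPM in lesional CTL and 3.67 and 4.65 CPM in lesional butyrate skin. The order of the groups was that of Il6, with all 4 lesional mice above all 4 baseline mice. Lif rose 3.31-fold in lesional CTL skin (log2 fold-change 1.73 ± 0.33, edgeR FDR = 0.0645). The log2 fold-change was 0.80 ± 0.33 with HDM in butyrate-treated mice (edgeR FDR = 0.376) and -1.17 ± 0.32 for lesional butyrate against lesional CTL skin (edgeR FDR = 0.815). The ratio of Il6 to Lif counts within a library was 0.0667 and 0.286 in baseline CTL, 1.01 and 2.12 in lesional CTL and 0.714 and 0.410 in lesional butyrate skin, so the lesional CTL libraries held the highest ratios.

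**Figure D1:**
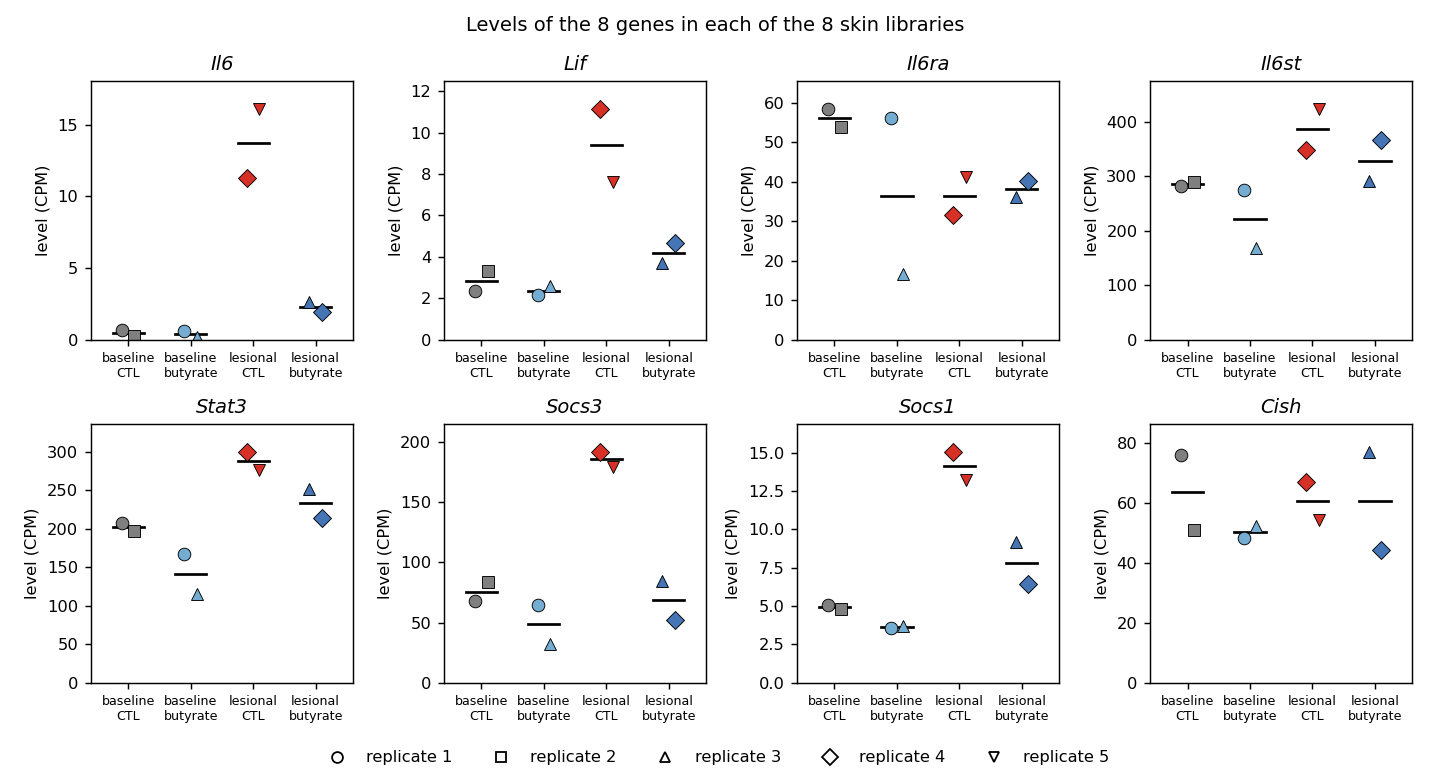
Level in CPM (linear axes from 0) of each of the 8 genes in each library, by group, with a symbol for each replicate and a bar at the mean of the 2 mice. For Il6 the lesional CTL mice are at 11.3 and 16.1 CPM and every other mouse is below 3 CPM, whereas for Cish every group overlaps at least one other.

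The receptor chains were not called in any comparison of the fit of all 8 mice. Il6ra, the chain that binds IL-6 (ENSMUSG00000027947, chr3:89864059-89913196 on the minus strand), was at 58.6 and 53.9 CPM in baseline CTL, 56.2 and 16.7 CPM in baseline butyrate, 31.7 and 41.3 CPM in lesional CTL and 36.3 and 40.3 CPM in lesional butyrate skin. The lowest value belonged to the mouse with hair follicle RNA, and without it the baseline mice all lay above the lesional mice. For lesional CTL against baseline CTL skin the log2 fold-change was -0.62 ± 0.50 (95% interval -1.84 to 0.59, edgeR FDR = 0.503). Without baseline butyrate replicate 3 it was -0.62 with an FDR of 0.0267, still short of a 2-fold change. With HDM in butyrate-treated mice the sign of Il6ra rested on that mouse, since the log2 fold-change was 0.07 with it and -0.55 without it (edgeR FDR = 0.971 and 0.110).

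Il6st encodes gp130, the chain that most of the family shares (ENSMUSG00000021756, chr13:112464070-112510086 on the plus strand). It was at 283 and 289 CPM in baseline CTL, 276 and 168 CPM in baseline butyrate, 350 and 425 CPM in lesional CTL and 291 and 367 CPM in lesional butyrate skin. All lesional mice lay above all baseline mice, by as little as from 289 to 291 CPM. The log2 fold-change of lesional CTL over baseline CTL skin was 0.44 ± 0.26 (edgeR FDR = 0.392), and that of lesional butyrate against lesional CTL skin was -0.23 ± 0.26 (95% interval -0.87 to 0.40, edgeR FDR = 1.00). The ratio of Il6st to Il6ra counts was 4.83 and 5.37 in baseline CTL, 11.03 and 10.3 in lesional CTL and 8.03 and 9.12 in lesional butyrate skin, and in baseline butyrate skin it was 4.90 in replicate 1 and 10.01 in replicate 3.

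Stat3 encodes the transcription factor at the end of this signal (ENSMUSG00000004040, chr11:100885098-100939540 on the minus strand). Its transcript was at 208 and 197 CPM in baseline CTL, 167 and 116 CPM in baseline butyrate, 300 and 276 CPM in lesional CTL and 252 and 214 CPM in lesional butyrate skin. The 4 groups did not overlap, and within baseline and within lesional skin the butyrate mice were the lower ones. The transcript says nothing of phosphorylation, by which STAT3 is activated. The log2 fold-changes were 0.51 ± 0.20 with HDM in CTL mice (edgeR FDR = 0.234) and 0.71 ± 0.20 with HDM in butyrate-treated mice (edgeR FDR = 0.268). For butyrate they were -0.31 ± 0.20 in lesional skin (edgeR FDR = 1.00) and -0.51 ± 0.20 in baseline skin (edgeR unadjusted p = 0.0412, FDR = 0.714), and none passed.

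Socs3 encodes the inhibitor that STAT3 induces (ENSMUSG00000053113, chr11:117966079-117970047 on the minus strand). It was at 67.7 and 83.9 CPM in baseline CTL, 65.0 and 32.5 CPM in baseline butyrate, 192 and 180 CPM in lesional CTL and 84.3 and 52.5 CPM in lesional butyrate skin. The lesional CTL mice stood above the other 6, and the lesional butyrate mice overlapped the mice without HDM. The log2 fold-change of lesional CTL over baseline CTL skin was 1.29 ± 0.37 (edgeR unadjusted p = 0.0114, FDR = 0.141), short of the FDR threshold, and without baseline butyrate replicate 3 it was 1.29 with an FDR of 0.0137. Lesional butyrate lay 2.72-fold below lesional CTL skin (log2 fold-change -1.44 ± 0.37, 95% interval -2.33 to -0.55, edgeR unadjusted p = 0.00707, FDR = 0.737). With HDM in butyrate-treated mice the log2 fold-change was 0.48 ± 0.36 (edgeR FDR = 0.630).

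Socs1, whose product acts mainly on interferon signalling (ENSMUSG00000038037, chr16:10782240-10785536 on the minus strand), was at 5.06 and 4.83 CPM in baseline CTL, 3.55 and 3.69 CPM in baseline butyrate, 15.0 and 13.2 CPM in lesional CTL and 9.16 and 6.42 CPM in lesional butyrate skin. Each group stood apart from the others. Socs1 rose 2.85-fold with HDM in CTL mice (log2 fold-change 1.51 ± 0.25, edgeR FDR = 0.0450). In butyrate-treated mice the log2 fold-change with HDM was 1.09 ± 0.25 (edgeR FDR = 0.198), and for lesional butyrate against lesional CTL skin it was -0.86 ± 0.24 (edgeR FDR = 0.823).

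Cish, the inhibitor known as a STAT5 target (ENSMUSG00000032578, chr9:107296026-107302784 on the plus strand), was at 76.1 and 51.0 CPM in baseline CTL, 48.4 and 52.2 CPM in baseline butyrate, 67.0 and 54.3 CPM in lesional CTL and 77.0 and 44.3 CPM in lesional butyrate skin. Every group overlapped at least one other, and the 2 lesional butyrate mice lay further apart than the means of any 2 groups. The 95% interval of the log2 fold-change ran from -0.82 to 0.69 with HDM in CTL mice (edgeR FDR = 0.917) and from -0.75 to 0.75 for lesional butyrate against lesional CTL skin (edgeR FDR = 1.00). The ratio of Socs3 to Cish counts, which is free of library scaling, was 0.889 and 1.65 in baseline CTL, 2.87 and 3.31 in lesional CTL and 1.09 and 1.18 in lesional butyrate skin. It was 1.34 and 0.623 in baseline butyrate skin, so the lesional CTL mice held the 2 highest ratios. Socs3 over Stat3 gave the same order at the top, with 0.639 and 0.650 in lesional CTL and 0.245 to 0.426 in the other 6 libraries.

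**Figure D2:**
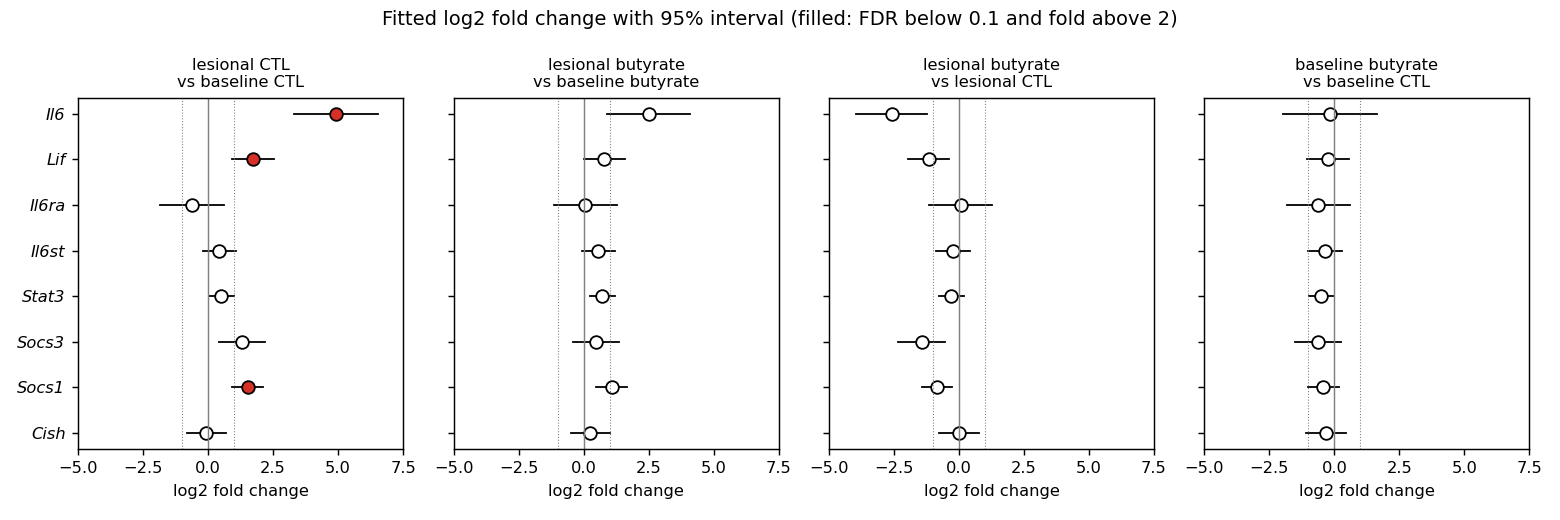
Fitted log2 fold-change (point) with its 95% interval (line) for each gene in the 4 comparisons of 2 groups, with 2 mice per group. Filled points are called, and dotted lines mark a 2-fold change. Il6 at 4.93, Lif at 1.73 and Socs1 at 1.51 are filled in the panel of lesional CTL against baseline CTL, and no point is filled in the other 3 panels.

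With HDM in butyrate-treated mice, edgeR called 0 of the 8 genes, against 0.277% of all genes called higher. Of the 8, 4 had an unadjusted p under 0.05, against 13.1% of all genes. Limma-voom called 0 of the 8, and DESeq2 called Il6 and Socs1, 2 of 8 against 4.60% of all genes called in either direction. Both lesional butyrate libraries lay above both baseline butyrate libraries for 5 of the 8, against 16.4% of all genes. Over both treatments, all 4 lesional libraries lay above all 4 baseline libraries for Il6, Lif, Il6st, Stat3 and Socs1, 5 of 8 against 9.07% of all genes. Without baseline butyrate replicate 3, edgeR called Socs1 alone among the 8 with HDM in butyrate-treated mice, against 2.5% of all genes called higher. In that fit the comparison of lesional CTL with baseline CTL skin called Socs3 beside Il6, Lif and Socs1, 4 of 8 against 6.33% of all genes called higher. Calls were also lost with other mice left out. Without baseline CTL replicate 1 or 2, lesional CTL replicate 4 or 5 or lesional butyrate replicate 3, edgeR called 0 of the 8 in that comparison, and without lesional butyrate replicate 4 it called Socs1 alone.

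For lesional butyrate against lesional CTL skin, edgeR called 0 of 15163 genes (0%), with 734 at an unadjusted p under 0.05, of which 4 were among the 8 (Il6, Lif, Socs3 and Socs1). Limma-voom called 1 gene, none of the 8, and DESeq2 called 124, among them Il6 and Socs3 (DESeq2 FDR = 0.00175 and 0.0428), against 0.666% of all genes called lower. Both butyrate libraries lay below both CTL libraries for 5 of the 8 (Il6, Lif, Stat3, Socs3 and Socs1), against 22.5% of all genes, and above for 0. The median log2 fold-change of the 8 was -0.58, beside -0.01 over all genes. Without baseline butyrate replicate 3, which is in neither group, the common biological coefficient of variation fell from 0.276 to 0.142, and edgeR called Il6 and Socs3 lower (FDR = 0.0576 and 0.0789), 2 of 8 against 0.886% of all genes called lower. Their log2 fold-changes there were -2.59 and -1.44. Without baseline butyrate replicate 1 instead, the coefficient was also 0.142, and Il6 and Socs3 were called lower at -2.59 and -1.44. Either fit leaves 1 mouse in the baseline butyrate group, which then adds nothing to the estimate of the spread. The fall in the coefficient therefore cannot tell the baseline butyrate mice apart. In a fit of the 4 lesional mice alone edgeR called 25 genes and none of the 8, with an FDR of 0.117 for Il6 and 0.153 for Socs3. The sizes of the differences were nearly the same in these fits, and the calls differed with the test and with the mice in the fit.

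**Figure D3:**
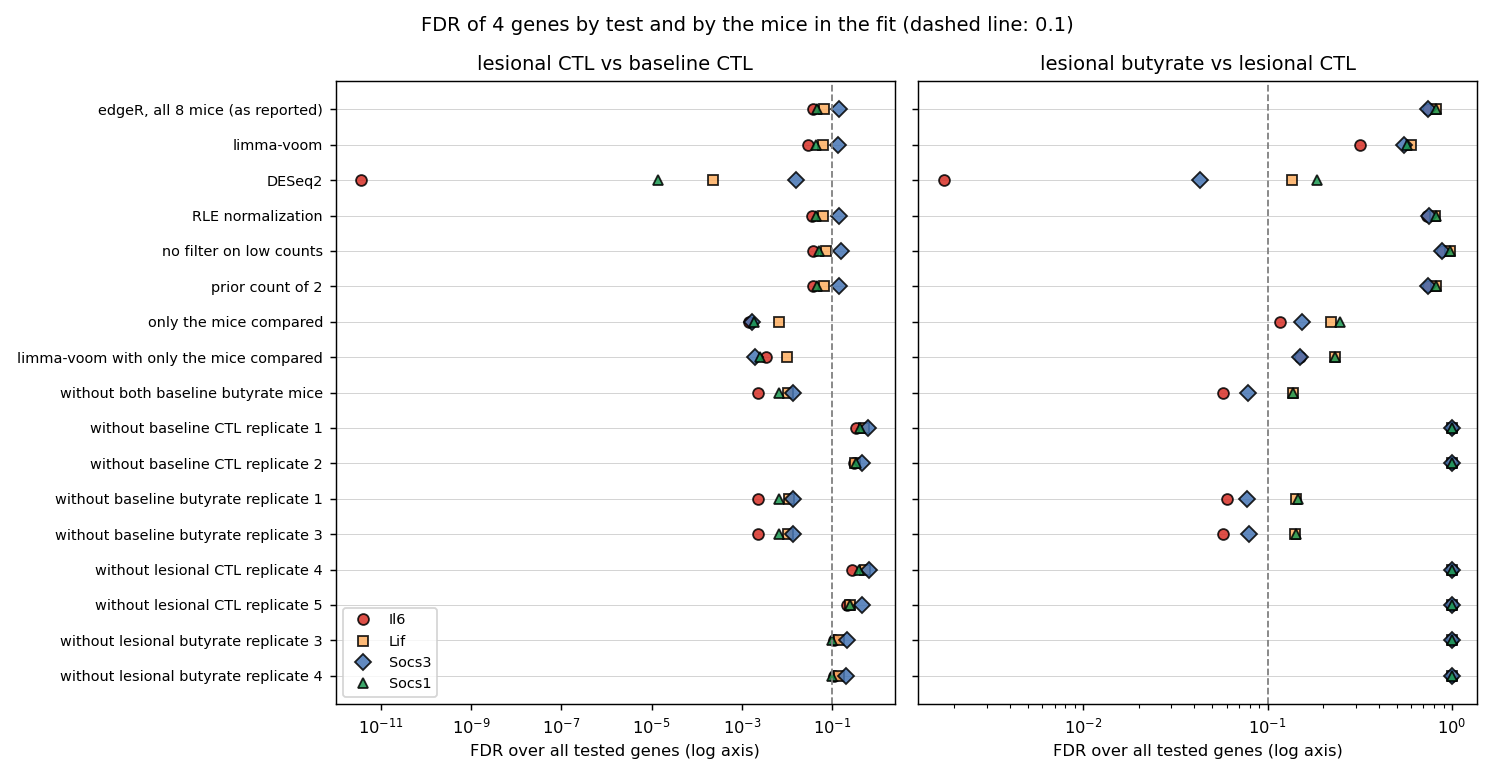
FDR over all tested genes (log axes) of Il6, Lif, Socs3 and Socs1 under each test and each choice of mice, for HDM exposure in CTL mice (left) and butyrate in lesional skin (right), with the threshold of 0.1 dashed. In the right panel Il6 and Socs3 lie left of the line with DESeq2 and in the fits without 1 or both baseline butyrate mice, and Lif and Socs1 lie right of it in each fit.

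In baseline skin butyrate against CTL gave 0 calls by edgeR among all genes (0%), with 529 genes and 1 of the 8 (Stat3) at an unadjusted p under 0.05. Limma-voom called 0 genes, and DESeq2 called 58 with none of the 8. Both butyrate libraries lay below both CTL libraries for 4 of the 8, Il6st, Stat3, Socs3 and Socs1, against 16.4% of all genes. With only replicate 3 left in the butyrate group, Il6ra (log2 fold-change -1.73, edgeR FDR = 0.00204) and Socs3 (-1.20, edgeR FDR = 0.0239) were called lower, 2 of 8 against 14.7% of all genes called lower. With only replicate 1 left the log2 fold-changes were -0.0016 and -0.22, and none of the 8 was called. The test of whether butyrate acted differently in lesional than in baseline skin gave 0 calls by edgeR (0%), with 703 genes at an unadjusted p under 0.05, 0 calls by limma-voom and 37 by DESeq2 with none of the 8. For Il6 that difference was -2.43 ± 0.93 on the log2 scale (edgeR unadjusted p = 0.0378, FDR = 0.840), so the effect on Il6 was not shown to differ between them.

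Levels can be compared between genes per length, here as CPM per kilobase of merged exons. In lesional CTL skin Socs3 was the highest at 64.3 ± 2.98 (SD, n = 2), followed by Il6st at 34.9 ± 4.79 and Stat3 at 30.3 ± 1.76, whose libraries overlapped with each other. Cish followed at 9.45 ± 1.39, then Il6 at 5.63 ± 1.41, Socs1 at 4.86 ± 0.45 and Il6ra at 4.23 ± 0.79, where each overlapped the next, and Lif was the lowest at 2.16 ± 0.58. In lesional butyrate skin Socs3 at 23.7 ± 7.78 overlapped Stat3 at 24.5 ± 2.78, and Il6 was the lowest at 0.933 ± 0.209, overlapping Lif at 0.957 ± 0.159. In baseline CTL skin Il6 was also the lowest, at 0.183 ± 0.130, and Socs3 the highest at 26.2 ± 3.97, overlapping Il6st at 25.8 ± 0.44. Per kilobase of the longest transcript, Socs3 was again above Stat3 and Il6st in lesional CTL skin (72.8 ± 3.37, 47.7 ± 2.77 and 44.6 ± 6.12), with Stat3 now ahead of Il6st. By that length Socs3 at 26.8 ± 8.81 lay below Stat3 at 38.6 ± 4.39 in lesional butyrate skin with no overlap, and in baseline CTL skin Socs3 ranked below both while overlapping them.

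The other genes of the pathway came from lists by role, and their calls with HDM in CTL mice are to be read against the 2.37% of all genes called higher. Of 11 IL-6 family ligands 8 were tested, and 4 were called higher in lesional CTL over baseline CTL skin. The median of the list was 1.78 on the log2 scale, beside -0.02 over all genes. Beside Il6 and Lif these were Osm and Clcf1. Osm encodes oncostatin M, made by myeloid and T cells, and was at 0.222 to 0.943 CPM in baseline CTL, 9.71 and 12.8 CPM in lesional CTL and 1.34 and 2.14 CPM in lesional butyrate skin. Its log2 fold-change was 4.26 ± 0.81 with HDM in CTL mice (edgeR FDR = 0.0645) and -2.69 ± 0.72 for lesional butyrate against lesional CTL skin (edgeR unadjusted p = 0.00915, FDR = 0.784). Clcf1, a ligand of the CNTF receptor, was at 14.0 and 15.4 CPM in baseline CTL, 53.5 and 58.7 CPM in lesional CTL and 16.6 and 28.1 CPM in lesional butyrate skin (log2 fold-changes 1.93 ± 0.32, edgeR FDR = 0.0476, and -1.33 ± 0.31, edgeR FDR = 0.737). For lesional butyrate against lesional CTL skin 5 of the 8 tested ligands, Il6 and Lif among them, were lower in both libraries, against 22.5% of all genes. The median was -1.14, beside -0.01 over all genes, with 0 called.

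Of the 8 receptor chains, all tested, 1 was called higher with HDM in CTL mice, and the median was 0.16 on the log2 scale. This was Il27ra, the IL-27 receptor chain of lymphocytes, which was at 1.89 and 2.39 CPM in baseline CTL and 6.51 and 8.80 CPM in lesional CTL skin (log2 fold-change 1.84 ± 0.41, edgeR FDR = 0.0895), and at 4.98 and 5.96 CPM in lesional butyrate skin. The chain of the IL-31 receptor, Il31ra, which carries the itch signal of IL-31 together with OSMR, had the largest fitted difference. It was at 74.3 and 89.2 CPM in baseline CTL, 55.3 and 7.57 CPM in baseline butyrate, 12.1 and 17.6 CPM in lesional CTL and 12.5 and 15.6 CPM in lesional butyrate skin. With HDM in CTL mice its log2 fold-change was -2.46 ± 0.82, which did not pass (edgeR FDR = 0.187). Osmr was at 83.5 and 93.7 CPM in baseline CTL, 168 and 173 CPM in lesional CTL and 97.8 and 144 CPM in lesional butyrate skin (edgeR FDR = 0.164 with HDM in CTL mice).

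Of the 4 JAK kinases Jak2 had the largest fitted difference with HDM in CTL mice. Jak2, which is bound to gp130 among other receptors, was at 69.0 and 77.0 CPM in baseline CTL and 112 and 136 CPM in lesional CTL skin, an FDR of 0.0696 by edgeR at a log2 fold-change of 0.77 ± 0.15, under the fold threshold. Of 7 STAT factors 1 was called higher, Stat4, the factor of IL-12 signalling in T and NK cells. Stat4 was at 0.166 and 0.50 CPM in baseline CTL, 3.32 and 4.80 CPM in lesional CTL and 1.53 and 1.67 CPM in lesional butyrate skin (log2 fold-change with HDM in CTL mice 3.58 ± 0.58, edgeR FDR = 0.0449), and one of its baseline values was at the floor of 3 counts. Of 16 SOCS proteins and other inhibitors 1 was called higher, Socs1, and the median was -0.02. Socs5 and Ptpn2, a phosphatase that acts on JAKs and STATs, were next among the genes outside the 8, with log2 fold-changes of 0.95 ± 0.23 and 0.80 ± 0.23 that did not pass (edgeR FDR = 0.110 and 0.148).

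Genes known to respond to STAT3 were higher in lesional CTL skin in part. Of 16 listed 15 were found and tested, 4 were called higher and the median was 0.54 on the log2 scale. Saa3, an acute-phase protein, was at 1.28 and 1.94 CPM in baseline CTL, 83.4 and 105 CPM in lesional CTL and 15.0 and 17.3 CPM in lesional butyrate skin (log2 fold-change with HDM in CTL mice 5.87 ± 0.79, edgeR FDR = 0.0372). Timp1, an inhibitor of matrix metalloproteinases, was at 5.33 and 7.55 CPM, 100.02 and 111 CPM and 17.4 and 34.7 CPM in the same groups (4.03 ± 0.46, edgeR FDR = 0.0278). Bcl3, a partner of NF-kB, was at 12.8 and 17.2 CPM, 71.7 and 72.5 CPM and 28.8 and 56.7 CPM (2.27 ± 0.44, edgeR FDR = 0.0693). For lesional butyrate against lesional CTL skin 9 of the 15 lay lower in both butyrate libraries, against 22.5% of all genes, and the median was -0.43, beside -0.01 over all genes, with 0 called. These lists hold many targets of other factors as well, and no list was tested as a set.

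**Figure D4:**
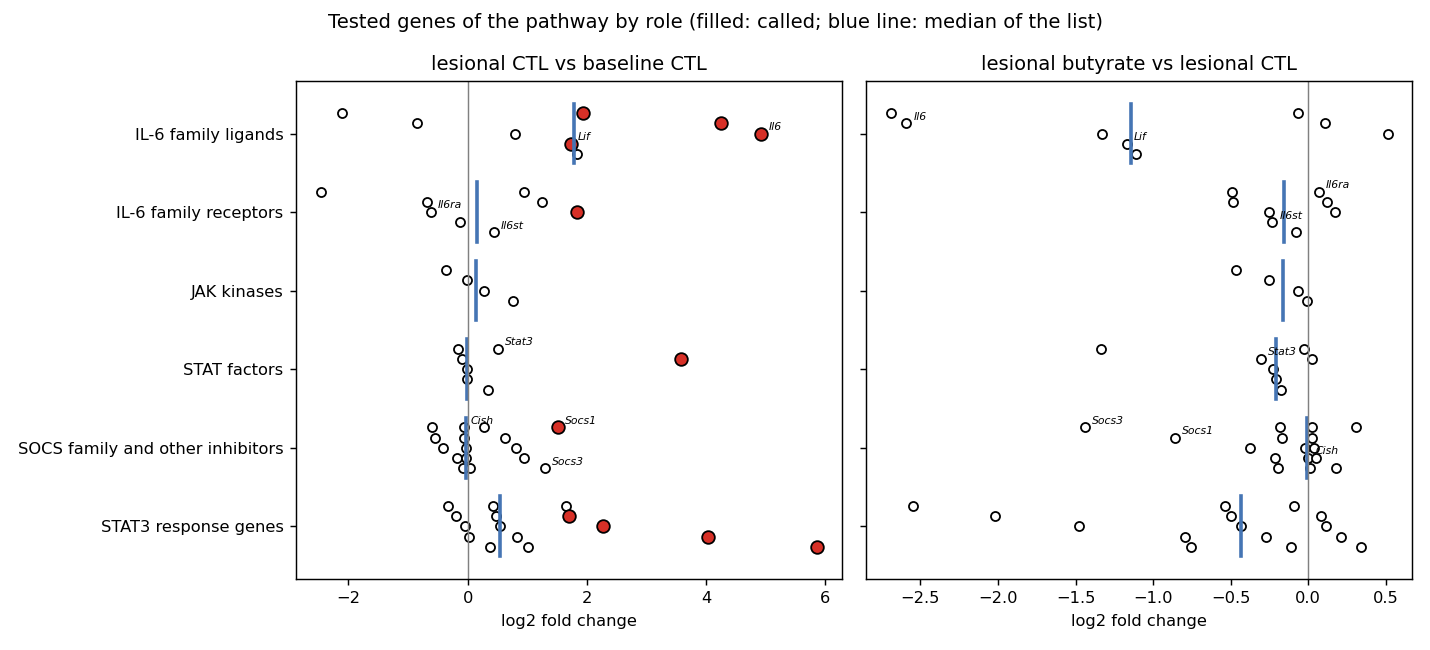
Fitted log2 fold-change of each tested gene of the pathway by role (points, 2 mice per group), with filled points called, a blue line at the median of each list and the 8 genes named. With HDM in CTL mice (left) the ligand median is at 1.78 and the inhibitor median at -0.02, and for butyrate in lesional skin (right) the ligand median is at -1.14 and no point is filled. The axes of the panels differ.

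Marker sums of several cell types differed between the same groups. The 10 neutrophil markers, all found, summed to 88.2 and 88.0 CPM in baseline CTL, 83.6 and 34.4 CPM in baseline butyrate, 1893 and 1267 CPM in lesional CTL and 579 and 303 CPM in lesional butyrate skin. Of the 9 that were tested, 8 were called higher with HDM in CTL mice, against 2.37% of all genes. The other, Il1r2, went down, from 62.6 and 65.7 CPM in baseline CTL to 42.5 and 50.5 CPM in lesional CTL skin. Il1r2 made up most of the baseline CTL sum, and S100a9, at 836 and 1465 CPM, most of the lesional CTL sum. For lesional butyrate against lesional CTL skin all 9 were lower in both libraries, against 22.5% of all genes, with a median log2 fold-change of -2.45 and 0 called. Ly6g, a defining marker, was at 0 in both baseline CTL, both lesional butyrate and 1 of the baseline butyrate libraries, and at only 0.107 and 0.231 CPM in lesional CTL skin. Trem1 was at 0 in 1 baseline CTL library. T cell markers (7 of 7 found) summed to 22.4 and 23.1 CPM in baseline CTL, 87.2 and 45.3 CPM in lesional CTL and 53.4 and 43.0 CPM in lesional butyrate skin, and mast cell markers (6 of 6) to 156 and 206, 507 and 421, and 394 and 403 CPM. Macrophage markers (7 of 8 found) summed to 1418 and 1637 CPM in lesional CTL and 795 and 1443 CPM in lesional butyrate skin, which overlapped the baseline range of 361 to 1495 CPM. Of these immune cells, the neutrophil sum alone separated lesional CTL from lesional butyrate skin by more than 2-fold in every pair of libraries. Keratinocyte markers (6 of 6) summed to 20220 and 19625 CPM in baseline CTL, 14445 and 13649 CPM in lesional CTL and 20948 and 19321 CPM in lesional butyrate skin, so the lesional CTL sums were lower than both. This sum does not stand for each keratinocyte gene. With HDM in CTL mice 3 of the 6 markers had a higher fitted level and 3 a lower one. Mean levels went from 6806 to 1266 CPM for Krt10 and from 2788 to 5347 CPM for Krt14. Skeletal muscle markers (7 of 7) summed to 42652 and 51611 CPM in baseline CTL, 18182 and 25640 CPM in lesional CTL and 15244 and 27286 CPM in lesional butyrate skin. All 7 were lower in both lesional CTL than in both baseline CTL libraries, against 38.5% of all genes. The part of cell composition in the levels of Il6, Lif, Stat3, Socs3 and Socs1 was not tested.

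**Figure D5:**
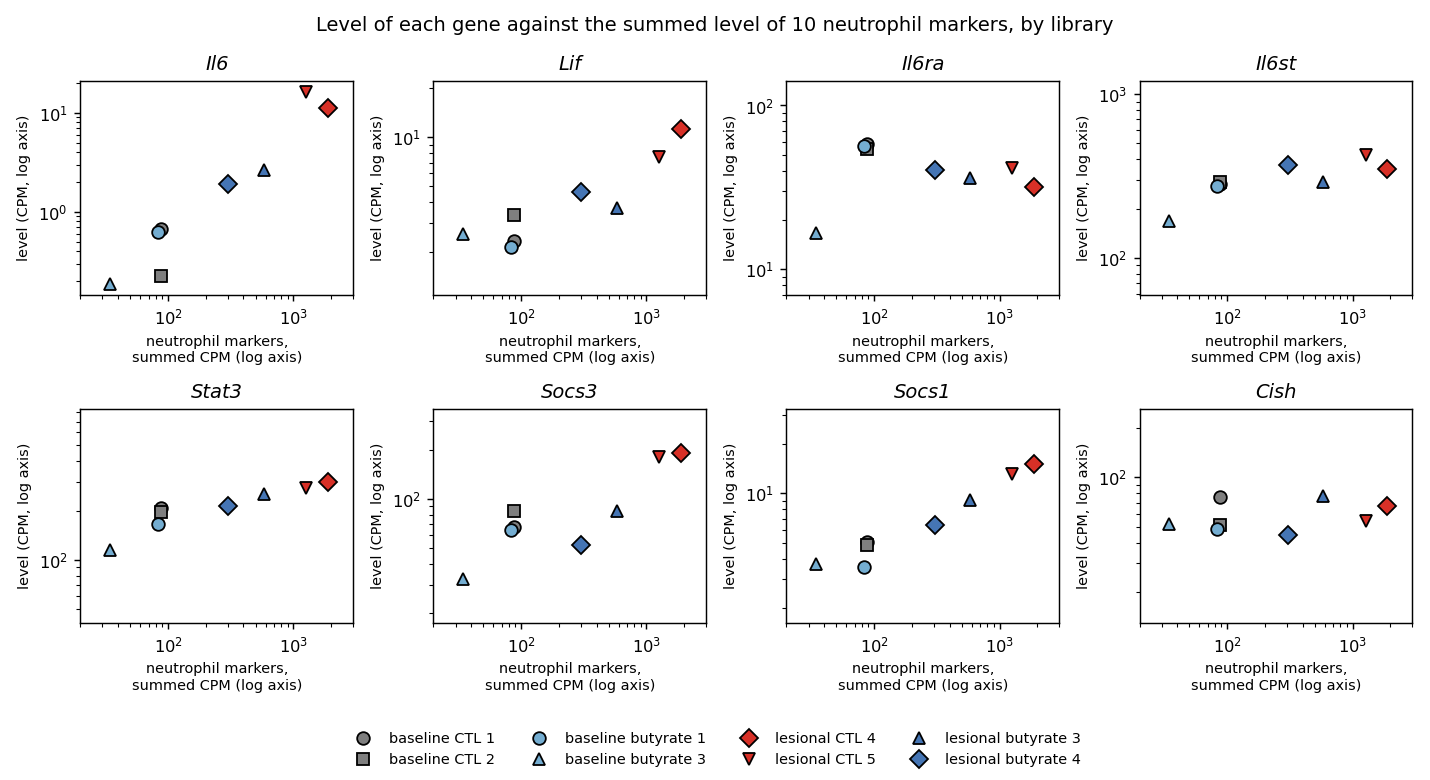
Level of each of the 8 genes (CPM, log axis) against the summed level of the 10 neutrophil markers (CPM, log axis) in each library, with colour for the group and a symbol for the replicate. The lesional CTL libraries are at 1893 and 1267 CPM and the lesional butyrate libraries at 579 and 303 CPM of neutrophil markers. The 2 lesional CTL libraries are also the highest of the 8 for Il6, Lif, Stat3, Socs3 and Socs1. For Cish the lesional butyrate libraries hold both the lowest and the highest level, 44.3 and 77.0 CPM. The groups set the order of these points, so that no correlation is given.

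The genes whose pattern over the 8 libraries was most like that of Il6 were sought among 14188 genes by the root mean square difference of centred log2(CPM + 0.5) values. They were Clec4d at 0.259, Gm5483 at 0.264 and Retnlg at 0.298. Clec4d and Retnlg are among the neutrophil markers listed here. Clec4d was at 25.2 and 34.6 CPM in lesional CTL and 5.15 and 5.44 CPM in lesional butyrate skin, against 0.655 to 1.58 CPM in baseline skin. Gm5483 was at 0 in all 4 baseline libraries, at 5.18 and 8.03 CPM in lesional CTL and at 1.19 and 0.651 CPM in lesional butyrate skin. It belongs to a family of near-identical stefin A genes, so its counts are uncertain. The genes most like Socs3 were Tmem252 at 0.223, Ramp3 at 0.272 and Ifi202b at 0.288. Ramp3, a partner chain of the calcitonin receptor-like receptor, was at 7.79 and 6.55 CPM in lesional CTL and 3.86 and 3.12 CPM in lesional butyrate skin, and like Socs3 it was lowest, at 0.842 CPM, in baseline butyrate replicate 3.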

How the data were processed

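RNA sequencing libraries were made from dorsal skin with the Illumina TruSeq RNA kit. The authors ran RNASik, in which STAR 2.5.2 aligned the reads to GRCm38 and featureCounts counted reads per gene, and deposited raw counts without normalization. The 8 libraries were mapped to 4 groups by the treatment and disease state in their labels, where SCFA was read as butyrate and vehicle as CTL. The series states 16 samples in its design, and 8 were analysed here, and 0 other columns of sample values were left unused.

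In R 4.3.3, counts were filtered with filterByExpr (minimum count 10), scaled by TMM and fitted with edgeR 4.0.16 (glmQLFit with robust estimation, glmQLFTest, prior count 0.125) over all 8 mice with a mean per group. Standard errors were derived from the F statistic, and intervals are 95% intervals. In this fit, with 2 mice per group, p-values rest on a spread pooled over all groups and shared in part between genes. They cover the spread among these 8 mice only. Other settings tried were DESeq2 1.42.0, limma-voom (limma 3.58.1), RLE normalization, no filter, a prior count of 2, other thresholds, only the mice compared (also with limma-voom, which was added after seeing the data) and fits without each mouse in turn. The scripts were tested on simulated data. Depth was 18004136 to 21085544 counts per library.

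The members and lists were chosen with earlier results of these data known. Text names all members, and from each pathway list the called genes (the 3 largest where more were called) and the gene outside the 8 with the largest fitted change and a mean of at least 1 CPM. Coordinates are from GENCODE M21 by identifier and promoters from RefSeq.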

Additional observations from a re-analysis of the deposited data

How the results depend on the processing

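Of 600 alternative values for the 8 genes, 538 kept their direction and their side of the threshold, 24 were newly past it, 17 no longer passed it and 21 turned in sign. The calls differed with the test and with the mice in the fit, and each group has only 2 mice. Genes under about 3 counts per library, near which Il6 lay in baseline skin, could not be measured at this depth. Each alternative had at least 1 mouse in every group compared, and a lone mouse was assumed to vary like the others. No paired analysis was possible because no more than 1 replicate number is common to 2 groups.

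For lesional CTL against baseline CTL skin the number of the 8 genes called ranged from 0 to 4 when 1 mouse was left out. It was 0 without baseline CTL replicate 1 or 2, lesional CTL replicate 4 or 5 or lesional butyrate replicate 3, 1 (Socs1) without lesional butyrate replicate 4, and 4 without either baseline butyrate mouse. The count over all genes was 543 in the fit as reported, 578 with limma-voom, 1093 with DESeq2, 1918 with only the mice compared and 1860 without both baseline butyrate mice. It was 0 without either baseline CTL mouse, 16 and 23 without lesional CTL replicate 4 and 5, 109 and 117 without lesional butyrate replicate 3 and 4, and 1936 and 1911 without baseline butyrate replicate 1 and 3. For lesional butyrate against baseline butyrate skin the number was 2 with DESeq2 and 0 to 4 without 1 mouse, with 4 (Il6, Il6ra, Socs3 and Socs1) without baseline butyrate replicate 1, where 19.1% of all genes were called, and 1 without replicate 3, where 5.94% were. For lesional butyrate against lesional CTL skin it was 2 with DESeq2, where 0.818% of all genes were called. It was also 2 without both baseline butyrate mice, where 1.25% were. For baseline butyrate against baseline CTL skin and for the difference of the effects it was 0 in every fit that kept baseline butyrate replicate 1. Without that mouse the log2 fold-changes for baseline butyrate against baseline CTL skin were -1.73 for Il6ra and -1.20 for Socs3. The log2 fold-changes of Il6 and Socs3 for lesional butyrate against lesional CTL skin ranged from -2.84 to -2.31 and from -1.82 to -1.14 over 16 alternatives each, with FDR values from 0.00175 to 1 and from 0.0428 to 1, and 4 of the 16 called each.

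Values turned in sign for Cish, Il6ra, Il6, Lif, Il6st and Stat3, none of them in a comparison where the gene was called in the fit of all 8 mice. For Cish in lesional butyrate against lesional CTL skin the value was -0.0453 with limma-voom, -0.0454 with limma-voom on only the mice compared, -0.0017 with DESeq2 and with RLE normalization, -0.000298 without both baseline butyrate mice and -0.45 to 0.35 without 1 mouse. Without 1 mouse Cish ranged from -0.33 to 0.25 for lesional CTL against baseline CTL, from -0.19 to 0.62 for lesional butyrate against baseline butyrate, and from -0.13 to 0.67 for the difference of the effects. Il6ra ranged from -0.55 to 1.17 for lesional butyrate against baseline butyrate and from -0.11 to 0.27 for lesional butyrate against lesional CTL. For baseline butyrate against baseline CTL Il6 ranged from -1.20 to 0.82 and Lif from -0.48 to 0.0281. For the difference of the effects Il6st ranged from -0.18 to 0.52 and Stat3 from -0.0258 to 0.48. The cause was not tested.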

Other observations

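Pairs of IL-6 family genes lie next to each other in the genome. This was noticed after the values were seen, and no test of it was made. Osm and Lif lie on chromosome 11 with 16.5 kb between them on the same strand, and both were called higher in lesional CTL over baseline CTL skin (log2 fold-changes 4.26 and 1.73) and lay lower in both lesional butyrate libraries than in both lesional CTL libraries (-2.69 and -1.17, not called). Il6st and Il31ra lie on chromosome 13 with 9.81 kb between them on opposite strands. In lesional CTL against baseline CTL skin Il6st had a log2 fold-change of 0.44 and Il31ra one of -2.46, neither called, and in both genes the 2 lesional CTL libraries did not overlap the 2 baseline CTL libraries.

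The library with hair follicle RNA, baseline butyrate replicate 3, had the lowest level of Il6ra, Il6st, Stat3 and Socs3 among the 8 libraries. For Il6 it held 4 counts, as did baseline CTL replicate 2. For Il6ra it was at 16.7 CPM against 31.7 to 58.6 CPM in the others, and for Stat3 at 116 CPM against 167 to 300 CPM.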
